A study of Mus musculus with 12 samples.

Results

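This account covers the highly methylated 500 bp tiles inside gene bodies of the mouse left ventricle. A tile took part when it was autosomal and held at least 3 CpG sites with a value in all 12 samples. It was a gene-body tile when all of its sites lay inside a protein-coding gene and more than 1 kb from any protein-coding gene end. Members were the gene-body tiles whose mean methylation over the 12 samples was above 80%. That was 6798 of 15575 gene-body tiles (43.6%) and 17.7% of all 38449 autosomal tiles. Because the level itself chose the members, their levels are described below without a test.

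The study measured DNA methylation by reduced representation bisulfite sequencing (RRBS) in hearts of wild-type FVB/N offspring aged 3 weeks. The enzyme MspI cuts at CCGG, and bisulfite converts unmethylated cytosines, so the percentage of reads keeping a cytosine is the methylation level of that site. From 6 weeks of age the mothers, FVB/NJ females, ate either a high-fat diet (HFD, TD.06415) or regular chow (RD), and after 8 weeks they were mated to males on RD. All offspring were on RD from weaning, and the question was what a mother's obesity leaves in the offspring heart. The HFD offspring gave 3 female and 3 male samples (HFD female 2, 3 and 4, HFD male 2, 3 and 4), and the RD offspring gave 4 female and 2 male samples (RD female 1 to 4, RD male 1 and 2). The number of mothers is not given, so litter and diet cannot be fully told apart, and p-values measure the spread between these samples. HFD libraries were numbered 2 to 8 and RD libraries 9 to 14, so the order of the libraries and the diet cannot be told apart either. Whole left ventricle holds several cell types, and their proportions cannot be told apart from methylation changes within a type.

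Methylation of CpG sites inside genes is the common state in mammalian tissues, in contrast to the CpG-dense starts of many genes, which stay unmethylated. Gene-body methylation is laid down by DNMT3A and DNMT3B and is copied after replication by DNMT1. In transcribed genes, the enzyme SETD2 marks histone H3 at lysine K36, and the PWWP domains of the DNMT3 enzymes bind that mark. Gene bodies also hold starts of shorter transcripts, enhancers and imprinted elements, where methylation can be lower or differ between the parental alleles.

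The sequence of most members was not used here, because only RefSeq windows around annotated starts (250 bases before and 50 after) were at hand. These windows checked the deposited positions first. Of 26945 sites inside them, 26943 (99.99%) lay on a CG of the RefSeq sequence of GRCm38.p6, and so did all 113 member sites. Only 33 members (0.485%) reached such a window, against 525 of the 4184 gene-body tiles under 20% (12.5%). Below are 5 stretches, chosen among windows with at least 3 measured member sites before the start. Each runs from 12 bases before the first to 12 after the last of these sites, as far as the bases before the start allowed. They show what methylated starts inside gene bodies look like, some rich and some poor in CpG. They are written 5′ to 3′ on the strand of the transcript. Capitals mark the CG of each measured site.

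Gm30283, inside Apobec2, plus strand, chr17:48423286-48423460: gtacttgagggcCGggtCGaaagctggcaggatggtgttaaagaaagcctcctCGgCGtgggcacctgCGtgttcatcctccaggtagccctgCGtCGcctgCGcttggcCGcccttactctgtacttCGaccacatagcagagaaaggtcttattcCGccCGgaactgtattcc
Fkbp6, minus strand, chr5:135349914-135350010: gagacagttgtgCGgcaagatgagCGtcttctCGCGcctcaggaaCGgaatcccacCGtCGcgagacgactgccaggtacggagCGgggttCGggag
Dao, plus strand, chr5:114004668-114004752: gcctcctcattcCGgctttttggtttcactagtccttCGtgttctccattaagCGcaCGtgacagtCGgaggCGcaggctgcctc
Lyzl4, minus strand, chr9:121587029-121587101: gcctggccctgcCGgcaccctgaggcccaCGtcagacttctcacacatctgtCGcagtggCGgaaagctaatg
Gm52044, inside Mef2c, minus strand, chr13:83662491-83662540: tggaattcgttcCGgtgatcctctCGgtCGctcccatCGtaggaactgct

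The tile at the Apobec2 stretch held 15 sites and averaged 87.5%, with single samples between 83.9 and 91.5%. Apobec2 encodes a muscle member of the APOBEC deaminase family. The Fkbp6 tile, in a gene known for its role in male germ cells, held 21 sites and averaged 84.1% (80.9 to 87.0%). Its window was the CpG-richest of the 5, with 29 CG in the 250 bases before the start. The Dao tile, in the gene of D-amino acid oxidase, held 6 sites at 86.1% (79.0 to 91.7%), and the Lyzl4 tile 4 sites at 95.2% (91.1 to 99.0%). The Mef2c tile, in the gene of a transcription factor of heart development, held 4 sites at 80.4%. It was the widest of the 5 between samples, from 66.7 to 88.1%. Its mean was 83.5% in HFD and 77.2% in RD, so it was a member only through HFD. None of these 5 tiles passed the test between the diets (limma adjusted p from 0.808 to 0.997).

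Counting the letters CG in the 250 bases before each start set the member windows apart from those of low gene-body tiles, as a description. The 38 windows that members reached held a median of 7 CG (interquartile range 4 to 9.75), at 0.353 of the number that their C and G content would give. The 538 windows reached by gene-body tiles under 20% held a median of 17 (12 to 25), at 0.739. Over all 32851 start windows the median was 6, at 0.373, so member windows lay near the general median. The letters CCGG occurred in 71.1% of the member windows, 95.7% of those of low tiles and 47.1% of all windows.

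**Figure D1:**
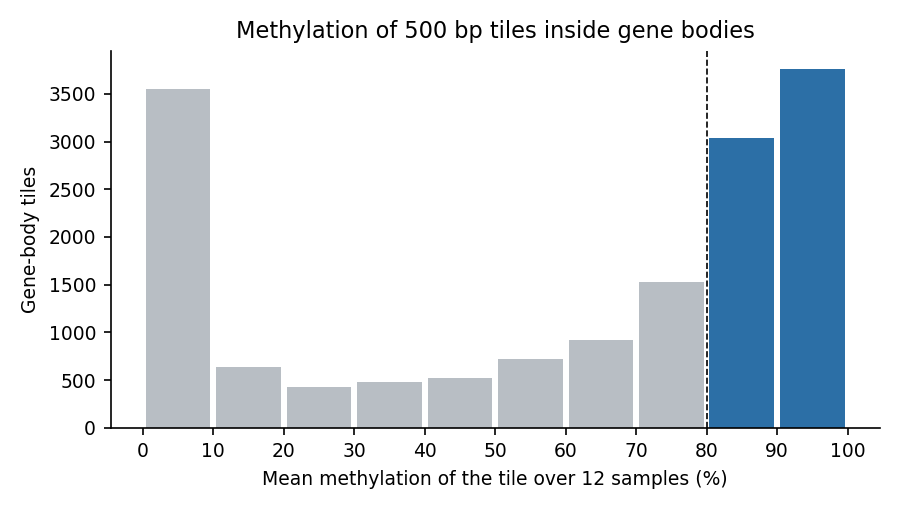
Number of gene-body tiles (y axis) by their mean methylation over 12 samples in steps of 10 percentage points (x axis). Bars right of the dashed line at 80% are the 6798 members, and the bars at 0 to 10% (3548 tiles) and 90 to 100% (3763 tiles) are the tallest.

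Gene-body methylation lay mostly at its high and low ends. Of the gene-body tiles, 3548 lay under 10%, 427 between 20 and 30%, 3035 between 80 and 90% and 3763 above 90%. Members had a median level of 90.7% (interquartile range 86.6 to 93.8%), and the highest reached 98.5%. In 5195 members (76.4%) every one of the 12 samples was above 80%. No member had a sample under 50%, and 105 (1.54%) had a sample under 70%. The threshold cut through a continuous range. The 3 members just inside, in Mical3, Mllt6 and Slc7a10, averaged 80.006, 80.016 and 80.020%, and the 3 tiles just outside, in Piwil4, Fam161b and Fam214a, averaged 79.992, 79.982 and 79.981%.

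Methylation was also even along most members. They held 32569 sites, of which 63.0% were over 90% and 77 (0.236%) were under 50%. All sites were over 80% in 4580 members (67.4%), and the median range between the lowest and the highest site of a tile was 9.81 percentage points. Where both cytosines of a CpG were listed, which happened 400 times, the 12-sample means of the strands differed by a median of 1.60 points. Of 599 members whose next 500 bp tile was a measured gene-body tile, 502 (83.8%) had a member next to them and 5 (0.835%) had a tile under 20%. The longest run of adjacent members was 6 tiles.

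A few members carried a site that stood apart from all its neighbours. In 17 members, 1 site was under 5% in every one of the 12 samples, and 9 of these sites read 0 in all 12. In Bcl11b, the gene of a zinc-finger transcription factor (chromosome 12, 107915564 to 107915628), the site at 107915586 was 0% in all samples. The other 9 sites of that tile had means from 91.0 to 97.7%, the nearest of them 2 bp away at 96.8%. The tile averaged between 83.4 and 89.3% in single samples, so its mean stayed above 80% with that site included. Sites at 0 also lay in members of Celsr1, a planar polarity cadherin (85978879 on chromosome 15), Elmo1, a regulator of Rac (20536759 on chromosome 13), Hhipl1 (108311924 on chromosome 12) and Myt1l, a neuronal transcription factor (29840295 on chromosome 12). Over the 17 members, the other sites had a median mean of 93.2%. The RefSeq sequence is of the C57BL/6J strain, and the FVB/N sequence at these sites was not examined.

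Members were sparse in measured CpG sites. Their median was 4 sites, the same as in gene-body tiles of 20 to 80% (n = 4593), and gene-body tiles under 20% had a median of 6. At least 10 sites were found in 5.09% of members, 5.51% of the intermediate tiles and 30.5% of the low tiles. Read the other way, members made up 49.1% of gene-body tiles with 3 sites and 18.5% of those with 10 or more. The member with the most sites lay in Shroom3, the gene of an actin-binding protein that shapes epithelia, with 39 sites at 86.5% (chromosome 5, 92942500 to 92942995). Its 12 samples ranged from 83.3 to 89.1%. Zfp865 followed with 35 sites at 86.0%, then Zfp777 with 32 at 95.3%, Plekhh3 with 32 at 80.03% and Zfp787 with 30 at 85.3%. Of these 5 genes, Zfp865, Zfp777 and Zfp787 encode zinc-finger proteins. The Zfp865 tile still held a site at 35.9%, and the lowest site of the Zfp777 tile was at 88.2%.

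The share of gene-body tiles that were members was lower near the gene ends than further inside. It was 22.9% at 1 to 2 kb, 40.8% at 2 to 5 kb, 50.4% at 5 to 20 kb, 49.8% at 20 to 100 kb and 49.9% beyond 100 kb. Along genes, 12056 gene-body tiles lay in 1 gene of known strand and were placed in 5 equal parts from the 5′ to the 3′ end. Members made up 20.5, 37.6, 46.8, 51.9 and 61.5% of the tiles in the 5 parts. Tiles under 20% went the opposite way, from 58.3% in the part at the 5′ end to 9.09% in that at the 3′ end. From the 5′ part to the 3′ part, the share was 32.3 and 64.5% among tiles with 3 sites, and 22.9 and 61.9% among tiles over no annotated start. With 1 tile for each gene and part it was 22.7 and 62.6%. Among tiles more than 5 kb from the gene ends it was 37.2 and 62.0%, a gap of 24.8 points against 41.0 points over all tiles. Tiles of 1 gene are not independent, and these shares are given as a description.

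**Figure D2:**
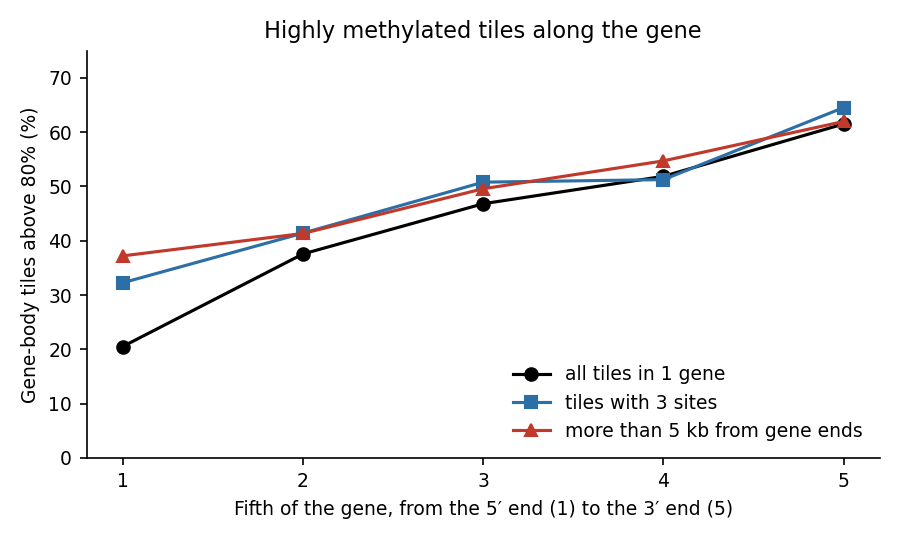
Percentage of gene-body tiles above 80% methylation (y axis) in 5 equal parts of the gene from the 5′ end (1) to the 3′ end (5). Black circles are all 12056 tiles in 1 gene, from 20.5 to 61.5%, blue squares tiles with 3 sites, and red triangles tiles more than 5 kb from gene ends, which start higher at 37.2%.

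Members were spread over 4057 genes, of which 2557 held 1 member, 167 held at least 5 and 16 at least 10. All but 81 members lay in a single protein-coding gene, and 249 (3.66%) also lay inside a long non-coding RNA gene. Exons and introns were not told apart here. Per chromosome, members made up from 37.7% (chromosome 18) to 49.7% (chromosome 10) of the gene-body tiles.

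Zfhx3, which encodes a homeodomain transcription factor, had the most members, with 18 members among 34 gene-body tiles over 682 kb. Its members averaged 91.4%, between 90.8% in RD male 2 and 92.4% in RD female 4. Cdh13, the gene of T-cadherin, a receptor of vascular and heart muscle cells, had 15 of 18 at a mean of 87.4%. Gse1 had 14 of 42 at 90.6%, Nphp4, which encodes a protein of the ciliary transition zone, had 14 of 20 at 90.5% over 86.5 kb, and Wwox, which encodes a WW-domain oxidoreductase, had 13 of 17 at 90.8%. In each of these 5 genes the 12 sample means of the members spanned less than 4 points. Member means in HFD and RD samples overlapped in all 5.

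Many genes combined members with unmethylated tiles. Of 771 genes with at least 5 gene-body tiles, 458 held both a member and a tile under 20%, 20 held members only and 103 held none. Over all genes, 949 combined both kinds. Among genes with at least 3 members, the gap between the mean of the members and the lowest gene-body tile was largest in Trim71. In this gene of an RNA-binding ubiquitin ligase of stem cells, 3 of 6 tiles were members at a mean of 96.7%. Another of its tiles (chromosome 9, 114562428 to 114562496, 11 sites) averaged 1.004%, with single samples from 0.222 to 1.75%. In Stau2, whose product binds double-stranded RNA, 5 members averaged 96.1% and the lowest tile 0.888%. In Fat1, an atypical cadherin, 6 members averaged 96.0% and the lowest tile 0.909%. Zfp827 had 7 members at 95.2% beside a tile at 0.914%, and Spred2, an inhibitor of Ras signalling, had 3 at 94.7% beside a tile of 23 sites at 0.647%. In no sample did the low tile of any of these 5 genes exceed 3.09%.

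Genes of the heart and of other cell types both carried members. Of 11 sarcomere genes with a gene-body tile, 7 had members, which were 18 of 37 tiles (48.6%). Titin (Ttn), the molecular spring of the sarcomere, had 6 members of 7 tiles, averaging 89.5% and ranging from 81.8 to 93.9% between tiles. The means of its members were 89.4, 90.8, 90.2, 87.4, 90.003 and 86.3% in HFD female 2, 3 and 4 and HFD male 2, 3 and 4. They were 90.2, 90.4, 90.3 and 87.8% in RD female 1 to 4 and 90.7 and 89.9% in RD male 1 and 2. The lowest values were in HFD males, and the diets overlapped.

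Among 16 genes of calcium handling and ion channels, 9 had members, 21 of 55 tiles (38.2%). Kcnd3, a channel of the transient outward potassium current, had 4 of 7 tiles at 86.0%. Ryr2, the calcium release channel, had a single gene-body tile, which was not a member at 68.4%. Cardiac transcription factor genes had members in 5 of 14 genes, and 15 of their 58 tiles (25.9%) were members, against 43.6% of all gene-body tiles. Prdm16, a zinc-finger regulator of compact myocardium, held 11 of these 15. Mef2c had 1 member and 1 tile at 0.881%. Genes of fatty acid and glucose metabolism had 14 of 42 tiles as members, with Igf1r, the receptor of insulin-like growth factor, at 4 of 6 tiles and Acacb, a mitochondrial acetyl-CoA carboxylase that limits fatty acid import, at 3 of 5.

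Genes known from other cell types also carried members. Endothelial genes had 10 of 22 tiles as members, among them both tiles of Flt1, a VEGF receptor, and 2 of 5 of Vwf, the von Willebrand factor gene. Fibroblast and collagen genes had 19 of 40, with all 5 tiles of Col5a1 and all 3 of Col6a2. Blood and immune genes had 6 of 24, including 3 of 12 in Runx1 and the single tile of Adgre1, which encodes the macrophage marker F4/80. Neuronal genes had 34 of 112 (30.4%), 9 of them in Ank3, which encodes ankyrin-G. Liver genes had 4 of 5 tiles, with Ahsg at 82.9% and F2, the prothrombin gene, at 91.3%. The enzymes that write, copy, read or remove DNA and H3K36 methylation had 24 of 36 tiles as members (66.7%), 6 of 7 each in the demethylase gene Kdm4a and the dioxygenase gene Tet3. Dnmt3a had 1 member of 3 tiles, at 84.9%, and Dnmt3b and Setd2 had no gene-body tile. The share over all gene-body tiles was 43.6%, and no list was tested.

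The tissue label could barely be checked in these data. Of 10 cardiomyocyte marker genes, only Actn2 (6.51%) and Ryr2 (2.29%) had at least 3 sites within 1 kb of the start. The other markers measured there were Fgb of liver at 82.8% and Lcp1 of blood cells at 2.33%.

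Every sample had nearly the same mean over the members. The HFD means were 90.13, 90.11 and 89.92% in females 2, 3 and 4 and 90.001, 90.02 and 89.44% in males 2, 3 and 4. The RD means were 90.32, 90.17, 89.95 and 90.08% in females 1 to 4 and 89.92 and 90.23% in males 1 and 2. The lowest was HFD male 4, the sample with the fewest sites measured (385299 against 391923 to 417081 in the others), and it was the lowest of the 12 samples in 994 members. HFD averaged 89.9% ± 0.254 and RD 90.1% ± 0.158 (SD, n = 6 each), and their ranges overlapped. The difference of -0.175 points was within the spread, and without HFD male 4 it was -0.0761. Females averaged 90.1% ± 0.134 (SD, n = 7) and males 89.9% ± 0.292 (SD, n = 5), also overlapping. The male mean includes HFD male 4, and the medians were 90.11% in females and 90.001% in males. In the intermediate gene-body tiles the diets were further apart, at 57.5% ± 0.210 in HFD and 58.3% ± 0.589 in RD (SD, n = 6 each). No p is given for these means, since the tiles were chosen on their level.

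**Figure D3:**
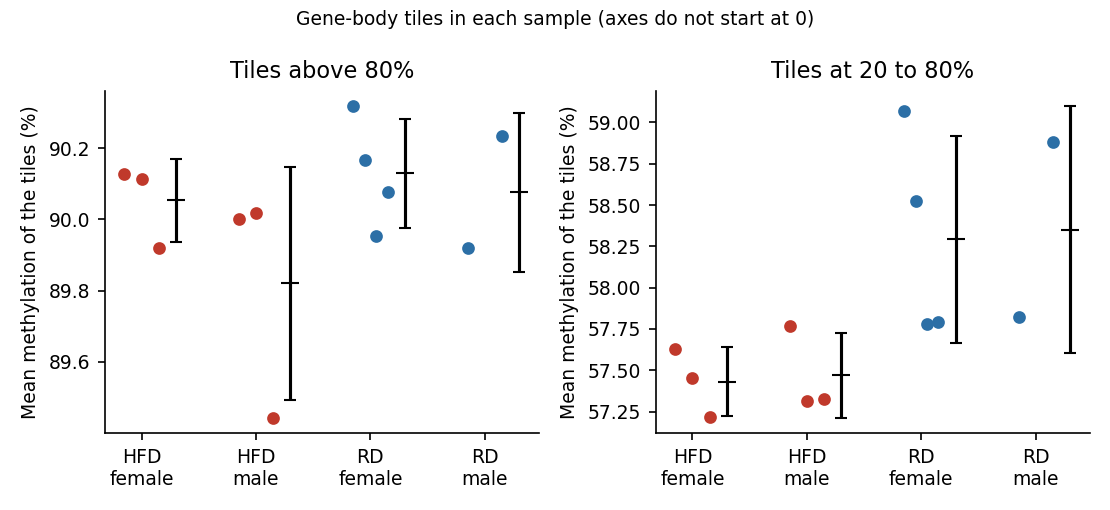
Mean methylation (y axes, percent, not starting at 0) over the 6798 members (left) and over the 4593 gene-body tiles of 20 to 80% (right) in each sample, by maternal diet and sex. Points are samples and bars the group mean ± SD; in the left panel HFD male 4 is lowest at 89.44% and all groups overlap in range with at least 1 other.

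The median within-group SD of the members was 2.51 points, against 2.56 over all tiles, 4.85 in intermediate and 1.79 in low gene-body tiles. That median was 2.98 in members with 3 sites and 1.57 in those with 10 or more. The steadiest was a tile of 7 sites in Lipc, the hepatic lipase gene, with an SD of 0.293 and samples from 95.7 to 97.0% (chromosome 9, 70903689 to 70903763). Kl (0.382), which encodes klotho, Ano2 (0.479), a chloride channel gene, Atrnl1 (0.488) and Lnx2 (0.508) came next. The 5 most variable members, in Lca5l (SD 11.9), Elavl3 (11.6), Smyd2 (11.4), Ralgds (10.4) and Dnmbp (9.82), all had 3 sites. In Lca5l the HFD values were 58.6, 76.2 and 89.2% in females and 100, 77.1 and 91.7% in males. Its RD values were 87.5, 74.4, 100 and 89.9% in females and 91.7 and 81.1% in males, so neither diet nor sex ordered them. Read counts were not analysed here, so counting error and differences between mice cannot be told apart in these tiles.

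Diet was compared with limma across all 38449 tiles, with sex in the model, on the log2 ratio of methylated to unmethylated rate. At an adjusted p under 0.05, 1 member was called, lower in HFD. The fit took in tiles of every level, but a tile with a large difference can be a member through its higher diet alone, as this one was. Over all tiles 0.0208% were called (8 tiles) and 0.0182% were called lower, against 0.0147% of members. At an unadjusted p under 0.05 there were 422 members (6.21%), against 6.93% of all tiles. Of these members 243 (3.57%) were lower and 179 (2.63%) higher in HFD, against 3.39% and 3.54% of all tiles. In 34 members (0.5%) the samples of the diets did not overlap, against 0.577% of all tiles. HFD was the lower diet in 19 of them (0.279% of members, against 0.31% of all tiles) and the higher in 15 (0.221% against 0.268%). Members were therefore near or under the background in each count. The intermediate gene-body tiles gave 10.7% at an unadjusted p under 0.05. Differences over 5 points were found in 2.06% of members, against 6.09% of all tiles, and differences over 10 points in 9 members (0.132%), against 0.809%. HFD was lower by over 10 points in 6 members (0.0883%), against 0.588% of all tiles. Counting differences of any size, HFD was the lower diet in 54.8% of members (median difference -0.172 points), against 49.8% of all tiles (median 0.005).

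The called tile lay in Peg13, an imprinted non-coding RNA gene (chromosome 15, 72805602 to 72810324), which sits inside Trappc9 (72589620 to 73061238), a gene of vesicle trafficking. Imprinted elements carry methylation on the allele of 1 parent, and alleles were not told apart here. The 7 sites of the called tile spanned 72810038 to 72810097. They lay near an end of Peg13, since the limit of 1 kb counted the ends of protein-coding genes only. HFD females 2, 3 and 4 were at 70.6, 75.1 and 69.8%, and HFD males 2, 3 and 4 at 63.2, 72.5 and 75.04%. RD females 1 to 4 were at 93.4, 90.4, 93.3 and 93.2%, and RD males 1 and 2 at 92.0 and 91.3%. All 6 HFD samples lay below all 6 RD samples and below 80%, so the tile was a member only through its RD values, and it is not among the 5195 members above 80% in every sample. The means were 71.0% ± 4.44 and 92.3% ± 1.24 (SD, n = 6 each), a difference of -21.2 points (log2 ratio -1.75, limma adjusted p = 0.000353). All 7 sites moved together, by -19.8 to -21.9 points. Sites of 1 tile are not independent, and they are not 7 separate observations. Over the 23 alternatives that tested the tile, the limma adjusted p was 0.0000672 to 0.00779.

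The neighbouring tile, also inside Peg13 (72809880 to 72809945, 6 sites), was no member but was called in the same direction. It was at 46.4% ± 4.26 in HFD and 69.1% ± 4.81 in RD (SD, n = 6 each), a difference of -22.7 points without overlap (limma adjusted p = 0.0284). The other 5 members in Trappc9 differed by -5.01 to 1.21 points, and none was called. The tile at 72832655 to 72832714, for example, was at 85.3% ± 2.17 in HFD and 85.0% ± 2.84 in RD.

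**Figure D4:**
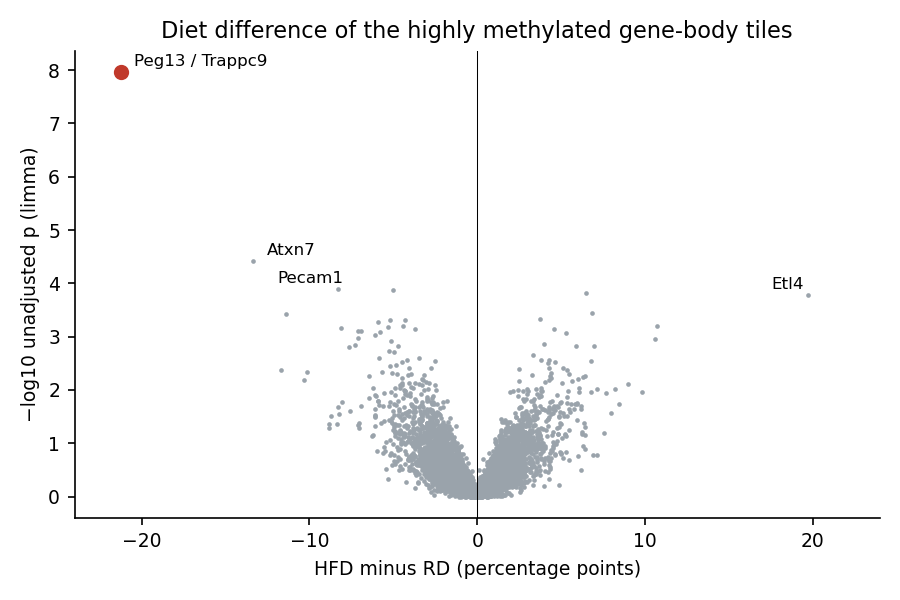
Difference between HFD and RD means in percentage points (x axis) and -log10 of the unadjusted limma p (y axis) for the 6798 members. The red point is the called tile in Peg13 and Trappc9 at -21.2 points; Atxn7, Pecam1 and Etl4 are labelled and did not pass the adjusted threshold.

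The members with the next smallest p were picked out after their values were seen, and none passed the threshold. The nearest lay in Atxn7 (chromosome 14, 14047059 to 14047184, 10 sites), which encodes a subunit of the SAGA histone acetylation complex. HFD females were at 77.5, 79.4 and 68.6% and HFD males at 79.9, 71.8 and 77.7%. RD females were at 93.7, 89.8, 90.04 and 88.6% and RD males at 84.1 and 88.8%, so the diets did not overlap. This tile too was a member only through RD, since all 6 HFD samples were under 80%. The difference was -13.4 points (limma adjusted p = 0.0959). Over 23 alternatives the limma adjusted p was 0.0450 to 0.694, and it passed in 1, with only tiles of at least 5 sites tested; the highest was with the replicate block. The 10 sites did not move alike. At 7 sites the difference was between -14.3 and -22.0 points, and at the other 3 between -3.51 and 0.53 points. Positions 14047115 (-1.42 points) and 14047116 (-19.2 points) were 1 bp apart, one in each set. Adjacent positions were counted above as both cytosines of a CpG, so these values would come from 1 CpG. At 14047115 the HFD and RD means were 90.2 and 91.7%, and at 14047116 they were 70.9 and 90.1%. Whether the difference of the tile comes from 1 strand was not tested. The ranges of the diets overlapped at 7 of the 10 sites and were apart at 14047065, 14047083 and 14047090.

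**Figure D5:**
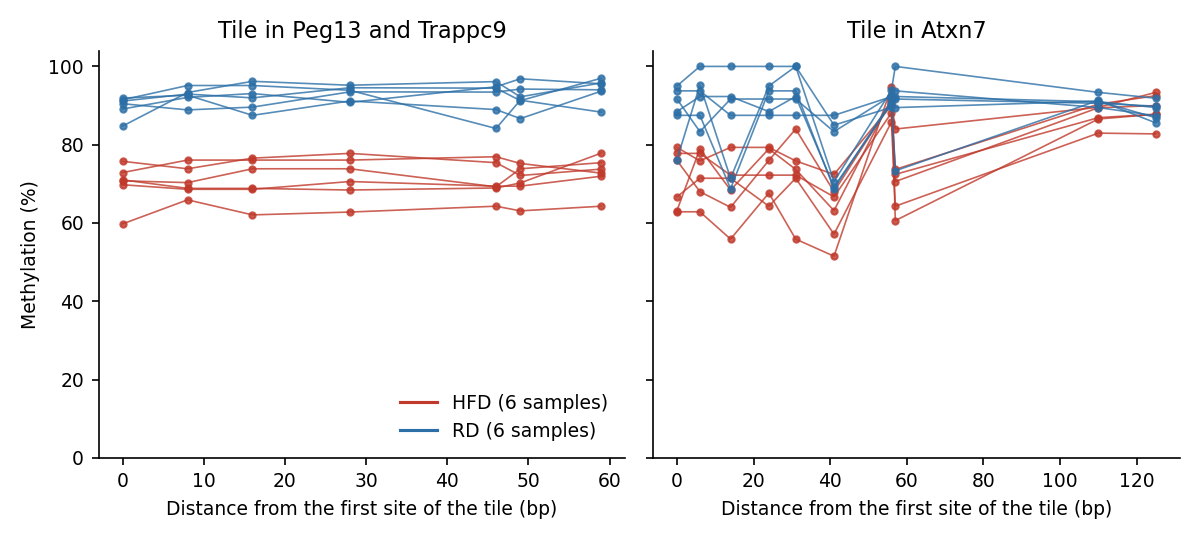
Methylation of each site (y axis, percent) by its distance in bp from the first site of the tile (x axis), with 1 line per sample, for the called tile in Peg13 and Trappc9 and for the tile in Atxn7. Red lines are the 6 HFD and blue lines the 6 RD samples, which are apart at all 7 sites on the left and overlap at 7 of 10 sites on the right.

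Etl4 had the second largest difference among members, at 19.7 points higher in HFD (chromosome 2, 20568233 to 20568289, 3 sites, limma adjusted p = 0.195). Its means were 92.0% in HFD and 72.2% in RD, so it was a member only through HFD. The difference rested on 1 site. At 20568289, HFD samples were between 77.3 and 96.3% and RD samples between 0 and 61.9%. The remaining sites of the tile differed by -3.65 and 2.02 points. In Pecam1, the gene of an endothelial adhesion molecule, a tile of 3 sites (chromosome 11, 106699608 to 106699665) was at 76.9 to 87.9% in HFD and 87.4 to 91.4% in RD. Its difference of -8.29 points did not pass (limma adjusted p = 0.174), and the diets overlapped. A tile in Adck1 differed by -5.004 points (limma adjusted p = 0.180) and one in Gm4869 by 6.48 points (0.1898). The Gm4869 tile was at 86.3% in HFD and 79.8% in RD, a member only through HFD. Of the 9 members that differed by over 10 points, 6 were lower in HFD and 6 had 3 sites. They lay in Trappc9, Atxn7, Dnah7b, Macf1, Fgd3 and Cdc42bpb (lower) and in Trim45, Tex2 and Etl4 (higher). Tiles with such differences can be members through 1 diet alone. The Dnah7b tile was at 74.5% in HFD and 86.2% in RD, so like Trappc9 and Atxn7 it was a member only through RD.

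None of the lists of heart and other genes held a member called for diet. In the sarcomere list HFD was the lower diet in 15 of 18 members, and their median difference was -1.23 points. Over all members HFD was lower in 54.8%, with a median of -0.172 points. In Ttn, HFD was the lower diet in 5 of the 6 members, with differences from -2.88 to 3.75 points. An unadjusted p under 0.05 was found in 2 of the 18 (11.1%), 1 in each direction, against 6.21% of members and 6.93% of all tiles. In the endothelial list 7 of 10 members were higher in HFD (median 0.907 points). The Pecam1 tile went against most of this list, and it was the only 1 of the 10 with an unadjusted p under 0.05. In the fibroblast and collagen list 10 of 19 were higher (median 0.014), and 2 had an unadjusted p under 0.05, 1 of them lower. Among the methylation enzymes 13 of 24 were lower (median -0.094), and 3 had an unadjusted p under 0.05, 2 of them lower.

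Between the sexes no member passed an adjusted p of 0.05 in the same limma fit, against 0.0104% of all tiles (4 tiles, 0.0078% lower and 0.0026% higher in females). At an unadjusted p under 0.05 there were 335 members (4.93%), against 5.46% of all tiles. Of these, 198 (2.91%) were higher and 137 (2.02%) lower in females, against 2.07% and 3.39% of all tiles. Females were higher in 54.9% of members, against 46.7% of all tiles and 38.7% of gene-body tiles under 20%. The sexes did not overlap in 13 members (0.191%), against 0.27% of all tiles. Females were higher in 11 of them (0.162%, against 0.0988% of all tiles) and lower in 2 (0.0294%, against 0.172%). The smallest p was at a tile inside both Gas7, which encodes a protein of neurite outgrowth, and Glp2r, the receptor of glucagon-like peptide 2 (chromosome 11, 67675547 to 67675620, 4 sites). Females were at 87.2, 87.5 and 84.5% (HFD) and 89.7, 89.7, 87.4 and 87.6% (RD), and males at 76.0, 79.6 and 79.2% (HFD) and 84.0 and 80.8% (RD). All females lay above all males, by a mean of 7.70 points (87.7 against 79.9%, so it was a member only through females), without passing (limma adjusted p = 0.308). On the log2 ratio scale the difference was 0.61, and with sites of missing values included it was 0.22 (limma adjusted p = 0.964). A tile in Dhx37, an RNA helicase gene, differed by -5.13 points between females and males (limma adjusted p = 0.706).

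The diet effect was compared between females and males as an interaction. No member passed in limma, against 0.0026% of all tiles (1 tile). There were 368 members (5.41%) at an unadjusted p under 0.05, against 5.13% of all tiles, 209 of them with a positive interaction (3.07%, against 2.28%) and 159 with a negative one (2.34%, against 2.85%). A positive value means that HFD minus RD was larger in females. The smallest p was at a tile of 6 sites in Cbs, the gene of cystathionine beta-synthase, which draws homocysteine out of the methyl cycle (chromosome 17, 31617169 to 31617225). HFD females were at 88.2, 87.1 and 90.1% and RD females at 92.5, 92.9, 92.9 and 93.0%. HFD males were at 93.1, 91.6 and 89.8% and RD males at 86.9 and 85.9%. The diets thus lay in opposite order in the sexes, and the interaction of -9.50 points did not pass (limma adjusted p = 0.677). A tile in Rasa3, which encodes a Ras GTPase-activating protein, gave an interaction of 19.6 points (limma adjusted p = 0.760). The RD male group had 2 samples, which limits this comparison.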

How the data were processed

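The authors deposited 1 table of percent methylation per CpG position and sample, per the file headers. The submitters' processing notes name FastQC, Trim Galore, Bismark 0.19, limma and the build mm10. The coverage minimum and the treatment of strands are not given in the sources used here. Read counts were not analysed here, so depth and counting error are unknown. Sites with a value numbered 385299 to 417081 per sample.

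Sites were averaged in 500 bp tiles with at least 3 complete sites. Genes, strands and start sequences came from NCBI RefSeq tables of GRCm38.p6. Rates as fractions were turned into log2((rate + 0.05)/(1 − rate + 0.05)) and fitted with limma 3.58.1 (R 4.3.3, eBayes with trend) over all 38449 tiles with diet and sex as terms. For the interaction, each diet and sex group had its own mean. P-values are two-sided with Benjamini-Hochberg adjustment over all tiles. The replicate numbers were tried as a block, and samples, site minimum, tile size, offset, scale, missing values, mean limits and variance moderation were varied. Members and gene lists were chosen with earlier results of these data known.

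Named tiles were those past the threshold or, with none, the 3 with the smallest p. Also named were the 5 genes with most members or, among genes with at least 3, the widest gap to their lowest tile, the 5 tiles with most sites, largest or smallest SD or lowest single site, the 3 tiles on each side of 80%, and list genes with most members. Some tiles and genes that this rule takes are not reported here. In simulated data from these tiles, a log2 shift of 1 with diet in 200 members was called in 60.5% and a shift of 2 in 97.5%. For sex these were 63.0 and 96.5%, and for the interaction 0 and 67.0%. With diet, 8 and 12 tiles that had not been shifted were also called. Shifting 200 members at once makes the adjusted threshold easier to pass than when few tiles differ. These shares therefore do not give the chance of calling a single shifted tile. Figures were drawn with matplotlib 3.10.9.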

Additional observations from a re-analysis of the deposited data

Results flagged for a closer look

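HFD male 4 stood apart from the other 5 HFD samples in the mean of the members, at 89.4% against 89.9 to 90.1%. It also stood apart in the number of sites with a value, at 385299 against 406225 to 417081. Both gaps exceeded Dixon's critical value. Over 27 groups examined this way, 2 were picked out, and chance gives 1.35. Whether the number of sites moved the mean was not tested. Leaving this sample out gave 6798 members, 6765 of them shared with the full set.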

How the results depend on the processing

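The member called for diet, in Peg13 and Trappc9, was called in every alternative that tested it. With tiles of at least 5 sites only, 2 members were called, the second in Atxn7, among 2602 members, and with members above 90% there were 0 among 3763, since the called tile averaged 81.6%. Other alternatives gave 1 call for diet, and 0 for sex and the interaction throughout, leaving out each sample in turn included (1 to 1, 0 to 0 and 0 to 0). The mean difference between the diets ranged from -0.213 to -0.0761 points when 1 sample was left out, the latter without HFD male 4. Allowing missing values gave 8809 members and 1000 bp tiles 6671. The gap along genes was 24.8 points beyond 5 kb from gene ends, against 41.0, an alternative chosen after seeing the data. With the replicate block, 1, 0 and 0 members were called for diet, sex and interaction. Deviations of same-numbered samples from their group means correlated between -0.0732 and 0.0176, and those of differently numbered samples between -0.0970 and 0.104. The deviations of the 2 RD males are mirror images of each other. Whether the numbers pair the samples therefore cannot be decided from these values. Depth is unknown, and tiles of 3 sites had the widest spread.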

Other observations

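Members over start windows or small RNA genes were few. Mest, an imprinted hydrolase gene on chromosome 6, had a member of 16 sites (30738074 to 30738388) reaching the bases after an annotated start, at 90.6% ± 3.75 in HFD and 94.4% ± 3.94 in RD (SD, n = 6 each, limma adjusted p = 0.736). Its samples ranged from 85.7 to 98.3%. The hairpins of 4 microRNAs overlapped members, with Mir6913 in Dohh at 92.6%, Mir6914 in Ankrd52 at 94.9%, Mir702 in Plod3 at 94.5% and Mir7062 in Adam8 at 87.9%. Tiles above 80% that had a site within 1 kb of a gene end (n = 747) had a median of 90.3%, a median of 4 sites and a median within-group SD of 2.53 points, against 90.7%, 4 sites and 2.51 points in the members. Of them 53.4% were lower in HFD, against 54.8% of members.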
